A study of Drosophila melanogaster with 12 samples.

Results

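Embryonic transcripts that pass from background to a clear signal between germ band extension and organ formation were sought by a strict rule, and 1 probe set met it. The probe set, 149304_AT, was 1 of 13966 gene probe sets on the array and was chosen by its deposited intensities, which were under 35 on all 6 arrays of stages 9 to 11 and above 200 on all 6 arrays of stages 13 to 15. The rule thus singled out a single transcript and not a group of transcripts. It has no gene name here: the gene table used names 133 of the gene probe sets through its synonyms, and 149304_AT is not among them, so no gene, position or sequence is given for it.

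All groups were fly embryos (Drosophila melanogaster) of strain C-S, from which total RNA was taken. The groups, with 3 arrays each, were irradiated embryos of stages 13 to 15 (titled resistant), control embryos of those stages, irradiated embryos of stages 9 to 11 (titled sensitive) and control embryos at stages 9 to 11. Treated embryos were taken 15 to 20 minutes after X-rays. The sources used here give neither the X-ray dose nor whether the arrays of a group came from separate collections of embryos, so p-values measure the spread between these arrays, which may be technical.

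As background, stages 9 to 11 of fly embryogenesis are the extended germ band, when segments are patterned and most cells are still dividing or undifferentiated. By stages 13 to 15 the germ band has retracted, dorsal closure and head involution proceed, and muscle, gut, trachea, nervous system and epidermis begin to express the genes of their final function. A transcript absent early and present late can belong to any of these tissues, and in whole embryos more cells of a type and more RNA per cell cannot be told apart. The window labels were matched by betaTub60D, a tubulin gene of the developing mesoderm and muscle, and by en, the segment polarity gene engrailed. betaTub60D read 534.4 to 809.1 at stages 13 to 15 and 87.3 to 115.2 at stages 9 to 11. The readings of en were 54.5 to 121.4 at stages 13 to 15 and 185.5 to 352.8 at stages 9 to 11. Both genes were picked with earlier results of these data known, so the match is a description and no check of the labels.

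The deposited values of the 12 arrays share 1 trimmed mean and so are comparable in overall brightness. Arrays with the same replicate number in their titles shared technical features in all 4 groups. For numbers 1, 2 and 3, the BioB spike-in gave 1376 to 1533, 425 to 738 and 226 to 299, and the 5′ over 3′ ratio of the eIF-4a control, which falls when RNA is degraded or labelling stops early, ran from 0.0378 to 0.0550 on arrays numbered 1, up to 0.0798 on arrays numbered 2 and up to 0.20 on arrays numbered 3. Values within each number are therefore given beside the results.

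At stages 13 to 15, 149304_AT read 442.4, 277.3 and 545.3 on the irradiated arrays numbered 1, 2 and 3, and 413.5, 358.3 and 515.6 on the control arrays. At stages 9 to 11 it read 15.0, 6.1 and 5.4 on the irradiated arrays and 6.5, 9.1 and 2.4 on the control arrays. All 6 later values were thus far above all 6 earlier ones, while irradiated and control values overlapped within each window. The group means were 422 ± 135 in irradiated and 429 ± 79.8 in control embryos at stages 13 to 15, and 8.83 ± 5.35 in irradiated and 6.0 ± 3.38 in control embryos at stages 9 to 11 (SD, n = 3 each). In order of level, the means of the later groups stood first, within their spread of each other, and the means of the earlier groups last, also within their spread of each other.

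**Figure D1:**
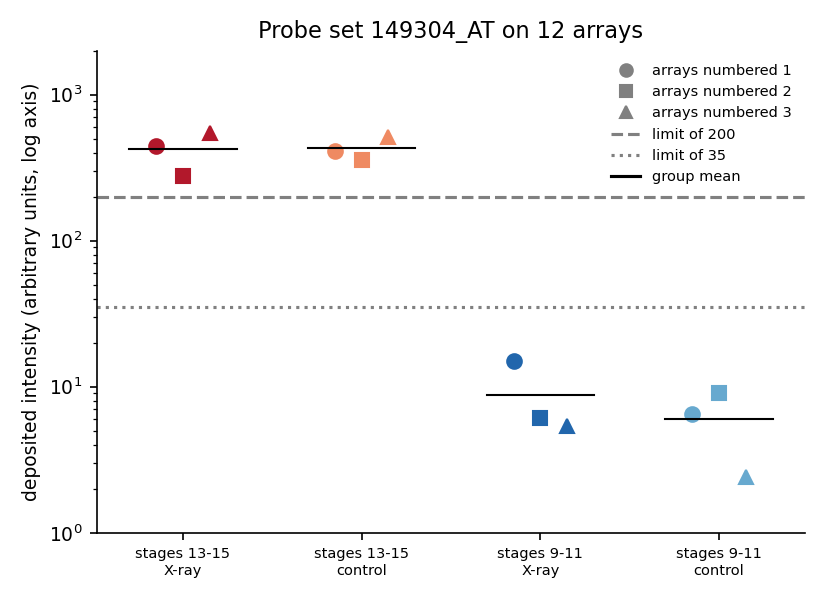
Deposited intensity of 149304_AT (log axis, arbitrary units) on each of the 12 arrays, by group, with the group mean as a black bar, the replicate number as the symbol and the limits of 200 and 35 as dashed and dotted lines. The 6 arrays of stages 13 to 15 lie between 277.3 and 545.3, and the 6 arrays of stages 9 to 11 between 2.4 and 15.0.

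The early values lay at the level of array background. On the same arrays of stages 9 to 11, the 8 control probe sets for mouse and yeast transcripts, which fly RNA should not contain, read 1.1 to 52.6 with a median of 11.4. On the arrays of stages 13 to 15 they read 1.1 to 34.9 with a median of 6.95. Within the arrays, 149304_AT exceeded 90.2% to 95.6% of the gene probe sets at stages 13 to 15 and 3.22% to 27.1% at stages 9 to 11. These are places in the distribution of intensities, which also depends on how well each probe set hybridises, and are not amounts of RNA. Since the early values cannot be told from background, they give no measured early level of this transcript and only say that its signal was not above it.

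For the same reason the size of the stage difference is uncertain. The lowest later value was 18.5 times the highest earlier value, the largest such ratio of all 13966 gene probe sets. On the scale log2(value + 13.3), where the pseudocount of 13.3 is the 25th percentile of the table, later control arrays were higher than earlier control arrays by 4.52, a 22.9-fold difference, and later irradiated arrays were higher than earlier irradiated ones by 4.27, or 19.3-fold. Ranked by this difference among 10139 tested probe sets, it was number 2 in control and number 3 in irradiated arrays. The control difference was 3.02 with 4 times that pseudocount and 5.59 with 0.25 times, so the fold is set largely by how the near-background values are treated. Within numbers 1, 2 and 3 it was 4.01, 3.90 and 4.90 in irradiated arrays and 4.43, 4.05 and 5.07 in control arrays. The stage contrast chose this probe set, so these values describe it and are no test.

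At stages 13 to 15 the spread of 149304_AT followed the replicate number. Irradiated and control arrays numbered 2 held the lowest values and those numbered 3 the highest, with deviations from the mean of the 6 arrays of −0.56 and 0.38 in irradiated embryos and −0.21 and 0.30 in control embryos on the log2 scale. The part of the array features of each number in this order was not tested.

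How rare such a step was can be read from both sides of the rule. Of the 1437 probe sets above 200 on all 6 arrays of stages 13 to 15, 1019 (70.9%) were also above 200 on all 6 arrays of stages 9 to 11 and 1243 (86.5%) were above 100 there. Only 34 of the 1437 (2.37%) were under 100 on every earlier array, 13 (0.905%) under 70, and 1 (0.0696%), 149304_AT, under 35. From the other side, 3803 probe sets were under 35 on all 6 earlier arrays. Of these, 2416 (63.5%) were also under 35 on all 6 later arrays, 88 (2.31%) were above 35 on all 6, and 15 (0.394%) above 100 on all 6. The mirror rule, which asks for over 200 on all 6 earlier arrays and under 35 on all 6 later ones, was met by 3 probe sets.

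**Figure D2:**
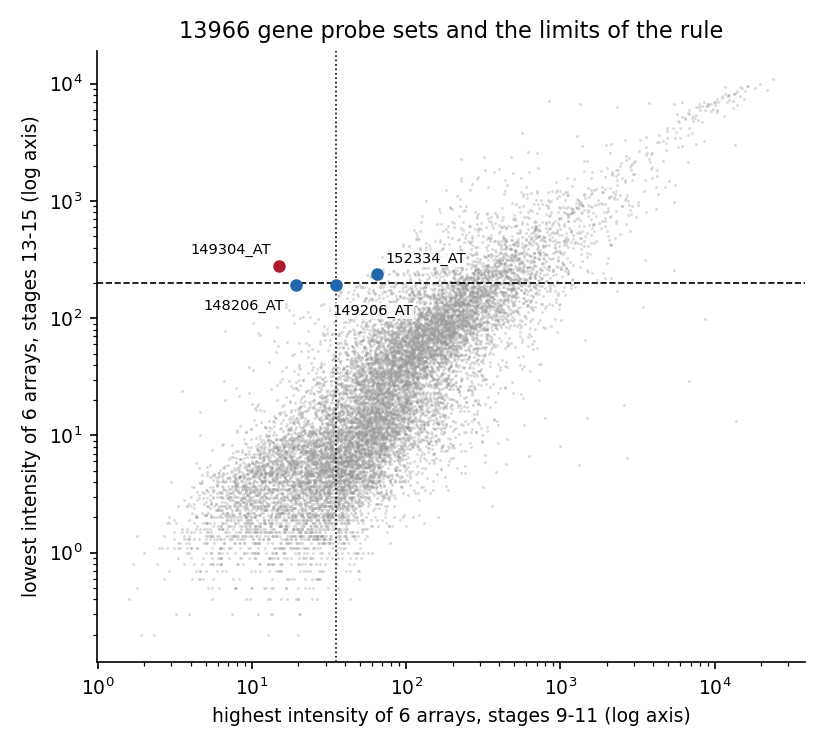
Lowest intensity over the 6 arrays of stages 13 to 15 (vertical, log axis) against the highest intensity over the 6 arrays of stages 9 to 11 (horizontal, log axis) for 13966 gene probe sets, with the limits of 200 (dashed) and 35 (dotted). 149304_AT (red) lies alone in the upper left corner at 277.3 and 15.0, and the 3 labelled blue probe sets lie just outside it.

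The values nearest to the limits show where the edge fell. 149304_AT itself was well inside both, with a highest earlier value of 15.0 and a lowest later value of 277.3. Just outside the later limit stood 148206_AT, also without a name, whose lowest later value was 191.8. It read 255.0, 325.0 and 289.7 in irradiated and 191.8, 257.6 and 268.0 in control embryos at stages 13 to 15, and 10.7, 19.3 and 9.5 in irradiated and 18.7, 13.1 and 7.7 in control embryos at stages 9 to 11. A single array, resistant control replicate 1, thus kept it out. Just outside the earlier limit, among probe sets above 200 on all later arrays, stood 143201_AT, whose highest earlier value was 55.6.

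When the limits had to be met on only 5 of the 6 arrays of each window, 4 probe sets qualified, with 148206_AT, 149206_AT and 152334_AT beside 149304_AT. 152334_AT read 240.0 to 484.8 at stages 13 to 15 and 10.8 to 23.8 on 5 arrays of stages 9 to 11, but 64.3 on sensitive control replicate 2. 149206_AT read 190.5 to 394.7 at stages 13 to 15 and 9.5 to 35.2 at stages 9 to 11, and missed each limit by a single array. With limits of 50 and 150 on all 6 arrays, 14 probe sets qualified, none of them named. The 13 others had highest earlier values of 19.3 to 48.4 and lowest later values of 155.0 to 191.8. With limits of 25 and 300 the count was 0, since 149304_AT read 277.3 on resistant X-ray replicate 2.

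None of the named genes met the rule, as its only member has no gene name. Of the 133 named probe sets (131 genes), 27 were under 35 on all earlier arrays and 34 above 200 on all later arrays, and 0 were both, where 3803 and 1437 of all 13966 met the first and the second limit. In 6 of the 131 genes the lowest later value was at least 2 times the highest earlier value, against 339 of 13966 probe sets (2.43%), and these 6 were picked after their values were seen. Shmt, the gene of serine hydroxymethyltransferase in one-carbon metabolism, had a ratio of 6.70, set against earlier values at background. It read 163.8, 121.4 and 116.6 in irradiated and 171.9, 181.8 and 176.2 in control embryos at stages 13 to 15, and 9.0 to 11.8 in irradiated and 8.2 to 17.4 in control embryos at stages 9 to 11. Shmt was therefore at background early, as 149304_AT was, but stayed under 200 late on every array.

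Oat, which encodes ornithine aminotransferase of amino acid breakdown, passed the later limit and failed the earlier one. It read 240.4 to 414.7 in irradiated and 227.7 to 366.4 in control embryos at stages 13 to 15, and 25.7 to 58.0 in irradiated and 23.0 to 45.4 in control embryos at stages 9 to 11. betaTub60D, with a ratio of 4.64, was above 87 on every early array and so was measured in both windows. Strn-Mlck, whose product is a muscle kinase of myosin light chains, read 20.0 to 70.5 in irradiated and 22.2 to 76.4 in control embryos at stages 13 to 15 and at most 6.7 at stages 9 to 11, below both limits. Jheh1, a juvenile hormone epoxide hydrolase gene, and CG17896 complete the 6, with ratios of 2.24 and 2.02.

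By list, 2 of 20 larval muscle genes, 2 of 18 gut, fat body and Malpighian tubule genes, 6 of 13 late metabolic enzyme genes, 1 of 20 early segmentation genes and 3 of 14 maternal and cell division genes were named on the array, and 0 of them met the rule. The only member, of 13966 gene probe sets, has no gene name, so this 0 was fixed and says nothing about the lists. None of the 20 epidermis and cuticle, 8 trachea, 14 neuron and glia or 9 blood cell genes was among the named probe sets. The tissue in which 149304_AT appears was therefore not analysed here.

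As a description of likeness, the Pearson correlation of log2 values with 149304_AT was computed over the 12 arrays for all tested probe sets, a measure chosen after the values were seen. The closest was 154520_AT (r = 0.995), and the closest named genes were betaTub60D (r = 0.985, number 30 in order) and Shmt (r = 0.984, number 37). Any probe set with a clean step between the windows scores high here, and the arrays share the scaling and the replicate numbers, so a high r says little beyond that step.

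X-ray treatment was not part of how 149304_AT was chosen, since the rule treats irradiated and control arrays alike, although its limits bound the values within each window. The question is whether the transcript changed within 15 to 20 minutes of X-rays. At stages 13 to 15 the log2 difference between irradiated and control embryos was −0.06 ± 0.30 (SE, adjusted p = 1.00 in limma, with a 95% interval of −0.69 to 0.57). The interval runs from 0.619-fold to 1.49-fold, so changes of that size remain possible. This fit did not take the replicate number into account, so its SE and interval include the spread between numbers described above. The interval is not a limit of detection, since a larger change could also have missed the adjusted threshold. The smallest adjusted p of all tested probe sets in this window was 0.521 in limma. Within numbers 1, 2 and 3 the difference was 0.09, −0.35 and 0.08, positive in 2 pairs and negative in 1. Of the 10139 probe sets tested in this window, 0 passed an adjusted p of 0.05 (0%), with 503 at an unadjusted p under 0.05, and 149304_AT was in neither count (unadjusted p = 0.841).

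At stages 9 to 11 the log2 difference of 149304_AT between irradiated and control embryos was 0.19 ± 0.30 (SE). Within numbers 1, 2 and 3 it was 0.52, −0.21 and 0.25. All 6 values were at background and the rule held them under 35, so this compares background readings and could not show a change of the transcript. In this window 2 of 10139 probe sets were called (0.0197%), and 149304_AT, tested with the rest, was not one of them. The effect at stages 9 to 11 minus that at stages 13 to 15 was 0.25 ± 0.42 (SE) and rests on the same background readings. It was not called, where 2 of 10139 were (0.0197%), and nothing about the transcript is read from it.

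**Figure D3:**
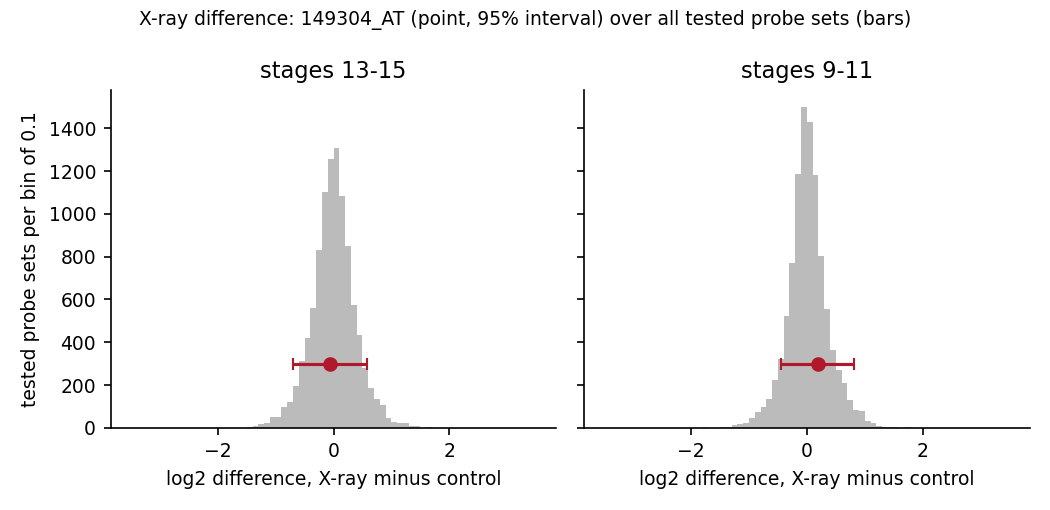
Log2 difference between irradiated and control embryos for 149304_AT (red point, with the 95% interval) over the same difference for all 10139 tested probe sets (grey bars, number per bin of 0.1), at stages 13 to 15 (left) and 9 to 11 (right). The point lies at −0.06 and 0.19, with intervals that include 0, and the right one compares background readings. The height of the point has no meaning.

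Among the 14 probe sets of the wider limits of 50 and 150, 149304_AT included, none was called for X-rays at stages 13 to 15. As 0 of all 10139 tested probe sets were called there, this is not particular to the 14. Of the 14, 7 had a negative difference and the values ran from −0.40 to 0.27 on the log2 scale. Their median was −0.00426, against 0.00162 over all tested probe sets. At stages 9 to 11 the limits held all 14 under 50, near background, so no X-ray comparison of them is given there.

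To describe the choice on arrays that did not take part in it, the limits of 35 and 200 were applied to one treatment and the stage difference was tested in the other, each in a fit of its own 6 arrays. The control arrays alone chose 4 probe sets and the irradiated arrays alone chose 6. 149304_AT was the 1 probe set in both lists, which is 25% of the first and 16.7% of the second. The arrays of the other treatment are no independent check: the full rule used all 12 arrays, and same-numbered irradiated and control arrays share the technical features given above.

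All 4 control-chosen probe sets, of which 149304_AT is 1, were higher at stages 13 to 15 in the irradiated arrays with an adjusted p under 0.05 in limma, where 11.4% of all tested probe sets were called higher. The full rule had already fixed the direction of 149304_AT in these arrays, so its call is no test. The count is a description and not support for the stage step. Besides 149304_AT these were 142318_AT, 151678_AT and 153970_AT. Their log2 differences in irradiated arrays were 2.79 ± 0.37, 2.37 ± 0.34 and 2.59 ± 0.37 (SE), with adjusted p-values of 0.000276, 0.000468 and 0.000457 in limma, and all 3 irradiated later arrays lay above all 3 earlier ones in each. In the control arrays that chose them the differences had been 3.52, 2.72 and 3.14. On the irradiated arrays, 142318_AT missed the later limit, and 151678_AT and 153970_AT missed both limits. 142318_AT read 106.2 on resistant X-ray replicate 2 and 180.4 on replicate 1, 151678_AT read 35.5 and 50.2 on the sensitive X-ray replicates 1 and 2 and 191.9 on resistant X-ray replicate 3, and 153970_AT read 45.5 on sensitive X-ray replicate 3 and 192.5 and 174.2 on resistant X-ray replicates 1 and 2.

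Of the 6 irradiated-chosen probe sets, 5 were higher (149304_AT and 4 others) at stages 13 to 15 in the control arrays with an adjusted p under 0.05 in limma, where 11.6% of all tested probe sets were called higher. Here too the full rule had fixed the direction of 149304_AT, and the count is a description. 148206_AT differed by 3.26 ± 0.30 in control arrays, 152334_AT by 3.20 ± 0.40, 152274_AT by 2.67 ± 0.53 and 152555_AT by 3.57 ± 0.56 (SE). The exception was 143796_AT, which differed by 3.13 in irradiated arrays and by 0.02 ± 0.35 in control arrays (SE, adjusted p = 0.973 in limma). It read 304.1, 312.0 and 221.3 in irradiated and 170.7, 224.8 and 128.1 in control embryos at stages 13 to 15, but 24.0, 22.5 and 13.5 in irradiated and 231.8, 234.5 and 84.0 in control embryos at stages 9 to 11. Its pattern among irradiated arrays came from low values in irradiated early embryos, and it was present in early controls.

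The size of the difference was smaller in the arrays that had not made the choice for all 4 control-chosen and for 5 of the 6 irradiated-chosen probe sets. A choice by low early and high late values favours smaller differences in the arrays not used, so these counts are a description. 149304_AT is in both lists, with 4.52 in control and 4.27 in irradiated arrays. It therefore had to be smaller in the first list and the exception in the second. 152555_AT and 152274_AT missed the full rule through early control arrays alone. 152555_AT read 87.0 and 123.1 on the sensitive control arrays numbered 1 and 2 but was under 35 on that numbered 3, and 152274_AT read 70.4 and 69.8 on the first pair but 2.9 on the last.

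**Figure D4:**
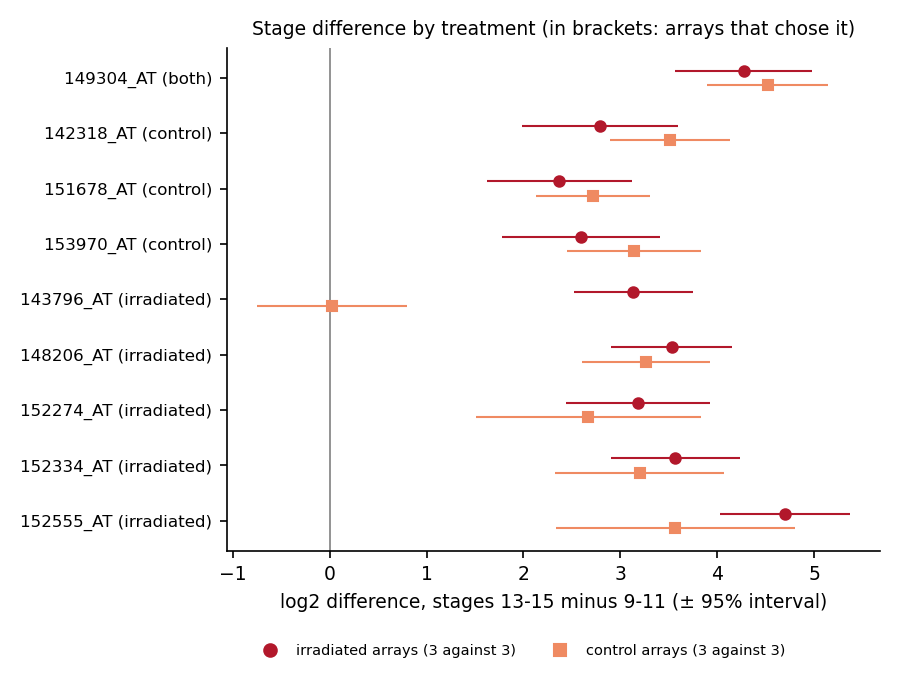
Log2 difference between stages 13 to 15 and stages 9 to 11 (with the 95% interval from limma) in irradiated arrays (red circles) and in control arrays (orange squares), for the 9 probe sets chosen on the arrays of either treatment, named in brackets. 149304_AT has differences of 4.27 and 4.52, and 143796_AT differs between the treatments, with 3.13 and 0.02.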

How the data were processed

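The deposited table holds intensities of 14010 probe sets on a linear scale for 12 arrays with 1 colour each. Neither software nor background treatment is named in the sources used here. With 2% of values trimmed from either end, the array means agreed to within 0.00229%, so the values had been scaled before deposit and were not normalized again. The 44 array controls were left out of tests. Values were transformed as log2(value + 13.3). Probe sets above 29.9 (the 40th percentile) on at least 3 arrays were tested, 10139 in all, with limma 3.58.1 in R 4.3.3 (4 group means, eBayes with a trend, 2-sided, Benjamini-Hochberg over all tested probe sets), and the stage difference per treatment in fits of 6 arrays. With 3 arrays a group, no exact permutation test could fall below 0.1, and precision is limited by the number of arrays. The code was tested on simulated data. Gene names came from RefSeq synonyms (Release 6 plus ISO1 MT), which left 13833 probe sets unnamed.

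The rule, the gene lists, the tests and the alternatives (normalization, pseudocount, filter, moderation, replicate number as a block, arrays left out, other limits) were chosen with earlier results of these data known. The rule for naming took every member, the members at the extremes of level and difference, and the probe sets nearest outside the limits. With 1 member these coincide, and probe sets of the alternative choices were added after their values were seen. No pair of arrays shared more than 0.523% identical values.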

Additional observations from a re-analysis of the deposited data

Results flagged for a closer look

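143796_AT, a probe set chosen on the irradiated arrays alone, passed the test of the difference between its X-ray effects in the earlier and the later window. The choice asked for low early and high late values in irradiated embryos, which favours a negative difference, so the test is not independent of it. The effect at stages 9 to 11 minus that at stages 13 to 15 was −3.11 ± 0.47 on the log2 scale (SE, adjusted p = 0.0380 in limma). The call was lost in 11 of the 12 fits that left out 1 array, all but the one without sensitive control replicate 3, with values of −3.56 to −2.88 over the 12 and an adjusted p of 0.0617 to 0.221 where it was lost. It was also lost under 5 of 8 other settings (adjusted p 0.0519 to 0.206), with values of −3.11 in 3 of the 5, −3.05 after quantile normalization and −2.17 with 4 times the pseudocount. It held in the fit blocked on replicate number (adjusted p = 0.00243) and without the arrays numbered 3 (adjusted p = 0.00169). Within numbers 1, 2 and 3, the X-ray difference was 0.79, 0.45 and 0.73 at stages 13 to 15 and −2.72, −2.79 and −1.86 at stages 9 to 11. 143796_AT was also 1 of the 2 probe sets called for X-rays at stages 9 to 11, with −2.46 ± 0.33 (SE, adjusted p = 0.0108 in limma). Over the alternatives that adjusted p in limma ran from 0.000314 to 0.320. This call too was lost without a trend in the moderation and in the fit of the window alone. It was also lost on leaving out any single array of stages 9 to 11 other than sensitive control replicate 3. The choice favours a negative difference there as well.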

How the results depend on the processing

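All 5 counts of calls were unchanged in all 90 alternative fits: 0 for 149304_AT under X-rays in either window or between windows, 4 of 4 control-chosen probe sets and 5 of 6 irradiated-chosen ones. The counts that involve background readings of 149304_AT at stages 9 to 11 show nothing about stability. The chosen lists were not chosen anew in these fits and had been picked by a large stage contrast, so their unchanged counts show little about it. With so few X-ray calls among all tested probe sets, the count of 0 at stages 13 to 15 also shows little. Over all tested probe sets, X-ray calls ranged from 0 to 1 at stages 13 to 15, from 0 to 9 at stages 9 to 11 and from 0 to 12 between windows, where the reported counts are 0, 2 and 2; the highest 2 were without the arrays numbered 3. The number of probe sets meeting the rule depended on its limits, with 0 at 25 and 300, 14 at 50 and 150 and 4 on at least 5 of 6 arrays. It was 1 after quantile normalization and without the arrays numbered 3, and 1 to 2 when 1 array was left out (2 without resistant control replicate 1 or sensitive control replicate 2). 149304_AT met it in all of these but the limits of 25 and 300. Its stage difference in control arrays was 3.02 when the pseudocount was raised 4 times and 5.59 when it was cut to 0.25 times. Its X-ray difference at stages 13 to 15 ran from −0.27 to 0.20 when 1 array was left out. The difference at stages 9 to 11 ran from −0.00371 (without sensitive X-ray replicate 1) to 0.30 and the difference between the effects from −0.0181 (without resistant X-ray replicate 2) to 0.45, with adjusted p-values of 0.876 to 1.00 over the alternatives of these 3 results.

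With the replicate number as a block, the X-ray differences of 149304_AT kept their values (−0.06, 0.19 and 0.25), as the balanced design requires, and it was still not called. Over all tested probe sets, the calls at stages 9 to 11 went from 2 to 3. Deviations of same-numbered irradiated and control arrays correlated at 0.0998, 0.116 and 0.435 at stages 13 to 15 and at 0.176, 0.130 and 0.421 at stages 9 to 11, and irradiated number 2 correlated best with control number 1 at stages 13 to 15 (0.139). Arrays numbered 3 correlated negatively with those numbered 1 and 2 of the other treatment, at −0.28 to −0.18. A pairing was taken only where every correlation was over 0.1, which 0.0998 narrowly misses, so the reported fit has no block. The block did matter over all tested probe sets. At stages 13 to 15, 736 had an unadjusted p under 0.05 with it and 503 without, and the smallest adjusted p was 0.0702 and 0.521 in limma. Signal at background in the earlier window limits every fold given for 149304_AT.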
